A study of Mus musculus with 6 samples.

Results

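The circadian clock genes described here were *Arntl*, *Clock*, *Npas2*, *Nr1d1*, *Nr1d2*, *Per1*, *Per2*, *Per3*, *Dbp* and *Ciart*, chosen by their symbols in the table of read counts. They were 10 of its 55341 rows, and 9 of them were among the 16017 genes with enough reads to be tested, since *Ciart* had no read in any library. RNA-seq had been done on the aorta of 3 miRNA-26b-/- mice (KO miRNA26B in the labels) and 3 miRNA-26b+/+ mice (naive in the labels), all 8 weeks old, on the C57BL/6 background (C57BL/6NCrl in the labels), on normal chow and in normal light and dark cycles. The knockout had been made by tamoxifen-induced CreERT2 deletion of a conditional allele, made in embryonic stem cells of another strain, and CreERT2 had then been bred out. The study describes the first crosses as a mixed background of that strain (Sv) and C57BL/6. How much of the other strain remained in the mice sequenced was not given. Beyond tamoxifen, the sources used here name no treatment other than the terminal ketamine and xylazine anaesthesia. They do not say whether the mice sequenced, of either group, had received tamoxifen. The sources used here did not give the hour at which each aorta was collected, and the genotype and the hour of collection therefore cannot be told apart. Libraries are named below by genotype and a replicate number from 1 to 3, which only counts mice within a genotype. One library was made per mouse, without pooling.

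The mammalian clock is a feedback loop of transcription. ARNTL (BMAL1) pairs with CLOCK or with its relative NPAS2, binds E-box sequences and switches on the period genes, the nuclear receptors *Nr1d1* and *Nr1d2* (REV-ERB alpha and beta), *Dbp* and *Ciart*; the period proteins then block the pair, and the REV-ERB receptors shut down *Arntl* and *Npas2* through ROR response elements. In tissues such as the vessel wall, *Arntl* and *Npas2* therefore peak at about the time when *Nr1d1* and *Dbp* are at their lowest, and an aorta collected once records both the level of each gene and the hour of the loop. The comparison of genotypes asks whether loss of miRNA-26b moved these genes in the aorta.

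The sequences that bear on the members are the seed of the deleted miRNA and the clock motifs in the members' promoters. The mature miRNA-26b-5p (RefSeq, GRCm38.p6, chr1:74394324-74394344, plus strand) is shown with its seed, bases 2 to 8, in capitals, beside miRNA-26a-5p, which has the same seed and comes from other loci, on chromosomes 9 and 10:

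miRNA-26b-5p: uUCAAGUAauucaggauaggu

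miRNA-26a-5p: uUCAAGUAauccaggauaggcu

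The longest annotated 3′ UTR of each member was searched for the perfect seed match TACTTGAA (8mer) and its shorter forms TACTTGA and ACTTGAA. *Per3* was the member with matches, an 8mer at base 437 and a 7-base ACTTGAA at base 1972 of its 2224-base 3′ UTR, and the other 9 members had none in 3′ UTRs of 261 to 6831 bases. An 8mer was present in 4.92% of the 13464 tested genes with an annotated 3′ UTR, and any of the 3 forms in 21.4%. The *Per3* matches lie in 1 exon each, on the minus strand. They are matches of letters only, and binding of the miRNA to them was not tested. Each is shown with the match in capitals:

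*Per3* 8mer (chr4:151005422-151005449): cccactagaaTACTTGAAgaacttctgt

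*Per3* 7-base match (chr4:151003888-151003914): tgtgttgtagACTTGAAtgtctacata

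Promoter windows from 250 bases before to 50 bases after the start were available for 9 members in RefSeq (13 windows, GRCm38.p6) and were searched on both strands for the E-box CACGTG, the E′-box CACGTT, the D-box TTATGTAA or TTACGTAA, the cyclic AMP response element TGACGTCA and the ROR response element. The loop is known to act through motifs of these kinds, but whether the matches found here are used was not tested. The stretches that hold a match are shown with the motif in capitals and 9 bases on either side:

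*Ciart*, 3 E-boxes (chr3:95882258-95882353, minus strand): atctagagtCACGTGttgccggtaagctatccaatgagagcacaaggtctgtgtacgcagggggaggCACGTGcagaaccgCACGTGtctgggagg

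*Per1*, E-box (chr11:69098774-69098797, plus strand): acccaagtcCACGTGcagggatgt

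*Nr1d1*, E′-box on the other strand (chr11:98775391-98775414, minus strand): acagatctcAACGTGccggctgct

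*Per3*, 2 D-boxes (chr4:151044807-151044879, minus strand): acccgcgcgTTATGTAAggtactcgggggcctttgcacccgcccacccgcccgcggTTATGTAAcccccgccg

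*Arntl*, ROR response element (chr7:113207528-113207556, plus strand): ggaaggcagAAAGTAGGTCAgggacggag

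Counted from the start as 0, the *Ciart* E-boxes began at -116, -58 and -44, the *Per1* E-box at -166, the *Nr1d1* E′-box at -28, the *Per3* D-boxes at -205 and -158, and the *Arntl* element at 26, inside the transcribed part. Of all 32851 promoter windows of this length, 7.15% held the E-box, 4.68% the E′-box, 1.06% a D-box, 1.79% the cyclic AMP response element and 0.384% the ROR response element. No member's window held the cyclic AMP response element, and the windows of *Clock*, *Npas2*, *Nr1d2* and *Dbp* held none of the motifs, which says only that these letters are not in these windows. The motifs are known for opposite parts of the loop: E-boxes are bound by the ARNTL pairs, D-boxes by DBP and its relative TEF, and ROR elements by the REV-ERB receptors.

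Total counts were 25706728 to 33345037 per library. The libraries were labelled as aortic endothelial cells, whereas the study took the aortic arch and thoracic aorta, and smooth muscle transcripts led: the summed level of 5 smooth muscle markers was 30354 to 40878 CPM (counts per 1000000, scaled by TMM, trimmed mean of M-values), against 438 to 1589 CPM for 7 endothelial markers. Marker levels also varied from library to library. The endothelial sum was lowest in miRNA-26b-/- 1 and 2 (438 and 470 CPM, against 1111 to 1589 CPM in the other libraries). *Pecam1*, *Vwf*, *Tie1* and *Cdh5* were lowest in the same libraries. *Kdr*, *Egfl7* and *Cldn5* did not follow this order, and *Kdr* was lowest in miRNA-26b-/- 3 (8.82 CPM). The sympathetic neuron and cardiac muscle sums were highest in miRNA-26b-/- 2 (238 and 293 CPM) and miRNA-26b+/+ 2 (50.3 and 265 CPM). In such bulk tissue, fewer cells of a type and less RNA per cell cannot be told apart. The *Mir26b* row held 20 reads over all 6 libraries, too few to check the genotype, since the kit was made for long RNA.

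Between genotypes no clock gene passed the test. Of the 9 members tested, 5 lay above 0 and 4 below, with a median log2 fold change (miRNA-26b-/- minus miRNA-26b+/+) of 0.093 beside 0.013 for all genes, and the smallest unadjusted p was 0.051, for *Per2*. The number of members with an unadjusted p under 0.05 was 0 of 9, where 6.46% of all genes tested were called by that rule (1035 genes), and the number with an adjusted p under 0.05 was also 0, where 0.00624% were called. That share was 1 gene, *Gm15564*, named here after its values were seen. These p-values are from edgeR's quasi-likelihood test, with the Benjamini-Hochberg adjustment over all 16017 genes. The levels of the 2 genotypes did not overlap for 1 of 9 members, *Per3*, beside 11.5% of all genes tested, so that the share of members was near the background. With 3 mice a group, the exact permutation test of a single gene could not give a two-sided p below 0.1.

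**Figure D1:**
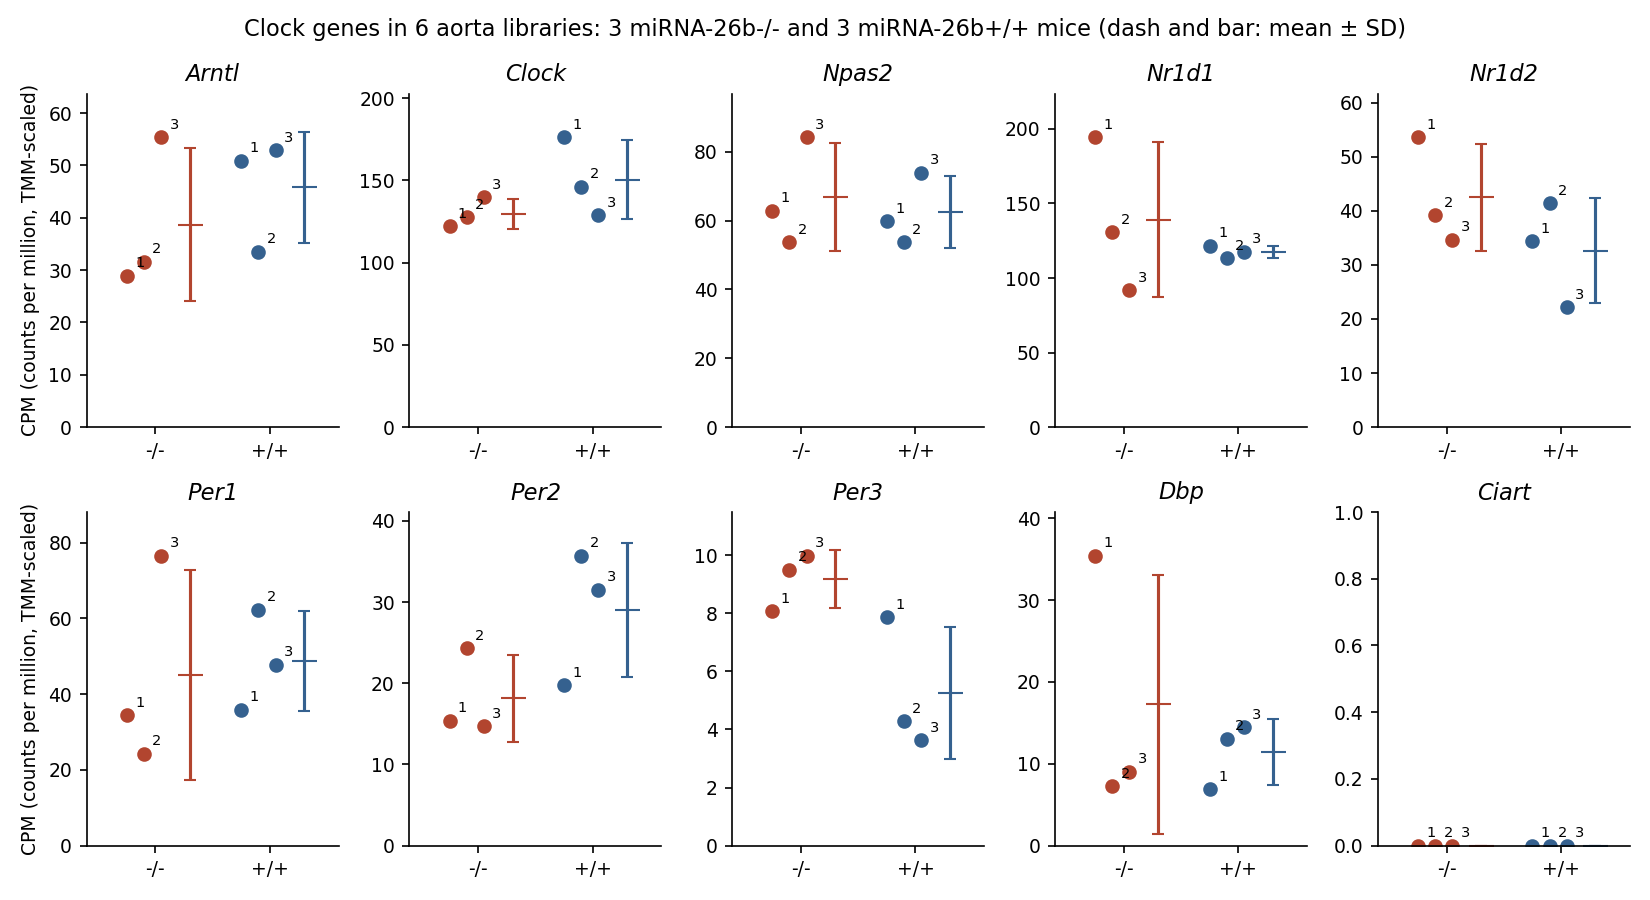
Level of each of the 10 clock genes in every library, in CPM (TMM-scaled, linear axes that start at 0), for miRNA-26b-/- (red, left) and miRNA-26b+/+ (blue, right); points are mice with their replicate number, and the dash with its bar is the mean ± SD of 3. *Per3* is the gene whose groups do not overlap, *Dbp* is set apart by miRNA-26b-/- 1 at 35.4 CPM, and *Ciart* lies at 0 throughout.

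The levels of the 3 activators overlapped between the genotypes. *Arntl* (ENSMUSG00000055116, mm10 chr7:113207465-113314126), the partner that both activating pairs need, was at 28.9, 31.6 and 55.4 CPM in miRNA-26b-/- 1 to 3, whereas the miRNA-26b+/+ mice 1 to 3 had 50.9, 33.6 and 52.9 CPM. It was low in miRNA-26b-/- 1 and 2 and miRNA-26b+/+ 2 and high in the other 3 libraries, so that the low and the high level were found in both genotypes. Its log2 fold change was -0.25 ± 0.27 (SE), with a 95% confidence interval of -0.83 to 0.32 (unadjusted p of 0.365, adjusted p = 0.931). Without miRNA-26b-/- 3 it became -0.60 at an unadjusted p of 0.0303 (adjusted p = 0.393), where 10.8% of all genes reached an unadjusted p under 0.05, and without miRNA-26b-/- 1 it was -0.096.

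*Clock* (ENSMUSG00000029238, chr5:76209868-76304792, minus strand), which encodes a partner of ARNTL, had the smallest SD of log2(CPM + 0.5) between libraries of the members tested. It was at 122, 128 and 139.8 CPM in miRNA-26b-/-, whereas the miRNA-26b+/+ mice had 176, 146 and 129 CPM, with overlapping groups and 1.44-fold between the lowest and the highest library. The log2 fold change was -0.21 ± 0.16 (SE; 95% confidence interval -0.56 to 0.13), and with 1 library left out it ran from -0.32 without miRNA-26b+/+ 3 to -0.082 without miRNA-26b+/+ 1. *Npas2* (ENSMUSG00000026077, chr1:39193731-39363236), which can take the place of CLOCK, was at 62.9, 53.8 and 84.3 CPM in miRNA-26b-/-, whereas the miRNA-26b+/+ mice had 59.9, 53.7 and 73.9 CPM. Replicate 3 was the highest and replicate 2 the lowest in each genotype, although the numbers do not pair the mice. Its log2 fold change was 0.093 ± 0.21 (SE; 95% confidence interval -0.35 to 0.54), and it turned to -0.11 without miRNA-26b-/- 3.

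The REV-ERB receptors were led by 1 library. *Nr1d1* (ENSMUSG00000020889, chr11:98767932-98775333, minus strand), the main repressor of *Arntl*, was at 195, 131 and 91.8 CPM in miRNA-26b-/-, whereas the miRNA-26b+/+ mice had 122, 113 and 118 CPM. The 3 miRNA-26b-/- libraries held both the highest and the lowest level of the 6, with an SD of 51.9 CPM beside 4.28 CPM in miRNA-26b+/+. The log2 fold change was 0.24 ± 0.22 (SE; 95% confidence interval -0.23 to 0.70). It turned to -0.076 without miRNA-26b-/- 1, and was 0.46 at an unadjusted p of 0.0195 (adjusted p = 0.341) without miRNA-26b-/- 3.

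*Nr1d2* (ENSMUSG00000021775, chr14:18204054-18239127, minus strand), its close relative with an overlapping role, was at 53.6, 39.1 and 34.6 CPM in miRNA-26b-/-, whereas the miRNA-26b+/+ mice had 34.4, 41.3 and 22.1 CPM. As with *Nr1d1*, miRNA-26b-/- 1 was the highest, but here the lowest was miRNA-26b+/+ 3. Its log2 fold change was 0.38 ± 0.26 (SE; 95% confidence interval -0.18 to 0.94; unadjusted p of 0.169, adjusted p = 0.859). It stayed above 0 without any single library, at 0.15 without miRNA-26b+/+ 3, 0.18 without miRNA-26b-/- 1 and up to 0.58 without miRNA-26b+/+ 2.

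The 3 period genes, whose proteins close the loop with the cryptochromes, each had their own order of libraries. *Per1* (ENSMUSG00000020893, chr11:69095217-69109960), which also responds to light, glucocorticoids and cyclic AMP, was at 34.5, 24.3 and 76.6 CPM in miRNA-26b-/-, whereas the miRNA-26b+/+ mice had 35.9, 62.4 and 47.8 CPM. The lowest and the highest library were both miRNA-26b-/-. The log2 fold change was -0.11 ± 0.34 (SE; 95% confidence interval -0.84 to 0.61), and its sign turned when miRNA-26b-/- 1, miRNA-26b-/- 2 or miRNA-26b+/+ 2 was left out (0.027, 0.21 and 0.10), while it was -0.74 at an unadjusted p of 0.0148 (adjusted p = 0.311) without miRNA-26b-/- 3.

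*Per2* (ENSMUSG00000055866, chr1:91415982-91459324, minus strand), a core repressor, was at 15.4, 24.3 and 14.7 CPM in miRNA-26b-/-, whereas the miRNA-26b+/+ mice had 19.8, 35.7 and 31.5 CPM. The groups overlapped in 1 pair of libraries, miRNA-26b-/- 2 above miRNA-26b+/+ 1. The mean was 18.1 ± 5.35 CPM (SD, n = 3) in miRNA-26b-/- and 29.0 ± 8.27 CPM (SD, n = 3) in miRNA-26b+/+. The log2 fold change was -0.65 ± 0.30 (SE), a fold of 0.638, with a 95% confidence interval of the log2 value of -1.30 to 0.0034 (unadjusted p of 0.051, adjusted p = 0.769). It stayed below 0 without any single library (-0.94 to -0.47), and its unadjusted p was 0.0167 without miRNA-26b-/- 2 and 0.017 without miRNA-26b+/+ 1 (adjusted p = 0.857 and 0.872). *Per2* lies on the chromosome of *Mir26b*, 17.0 Mb from it, and *Npas2* farther away on the same chromosome.

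*Per3* (ENSMUSG00000028957, chr4:151003652-151044665, minus strand), the period gene with the weakest known part in the loop and the member with the miRNA-26b seed matches, was at 8.08, 9.50 and 9.99 CPM in miRNA-26b-/-, whereas the miRNA-26b+/+ mice had 7.86, 4.29 and 3.63 CPM. All 3 miRNA-26b-/- libraries were above all 3 miRNA-26b+/+ libraries, by 8.08 against 7.86 CPM at the nearest pair. The means were 9.19 ± 0.991 CPM and 5.26 ± 2.27 CPM (SD, n = 3 each). The log2 fold change was 0.80 ± 0.46 (SE), a fold of 1.74 with a 95% confidence interval of 0.878 to 3.45 (unadjusted p of 0.105, adjusted p = 0.811), and the exact permutation p was 0.1, the smallest it can give. Without miRNA-26b+/+ 1 it was 1.22 at an unadjusted p of 0.0489 (adjusted p = 0.872). *Per3* had the fewest reads of the members tested, down to 110 in miRNA-26b+/+ 3.

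The output genes were *Dbp* and *Ciart*. *Dbp* (ENSMUSG00000059824, chr7:45705088-45710203), a D-box activator that carries the rhythm to metabolic genes and has one of the widest daily swings known, was at 35.4, 7.26 and 9.03 CPM in miRNA-26b-/-, whereas the miRNA-26b+/+ mice had 6.91, 13.1 and 14.5 CPM. The library miRNA-26b-/- 1 was at 5.13-fold the lowest library, and the other 5 lay within 6.91 to 14.5 CPM. The log2 fold change was 0.52 ± 0.53 (SE; 95% confidence interval -0.62 to 1.66), and it turned to -0.50 without miRNA-26b-/- 1. *Ciart* (ENSMUSG00000038550, chr3:95878503-95882251, minus strand), a repressor of the ARNTL pairs with the 3 E-boxes shown above, had 0 reads in all 6 libraries. A count of 0 allows a level of up to 0.09 to 0.117 CPM (3 counts of the total in each library, counting error only), and the next lowest value of any member, 3.63 CPM for *Per3*, lies above that limit.

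**Figure D2:**
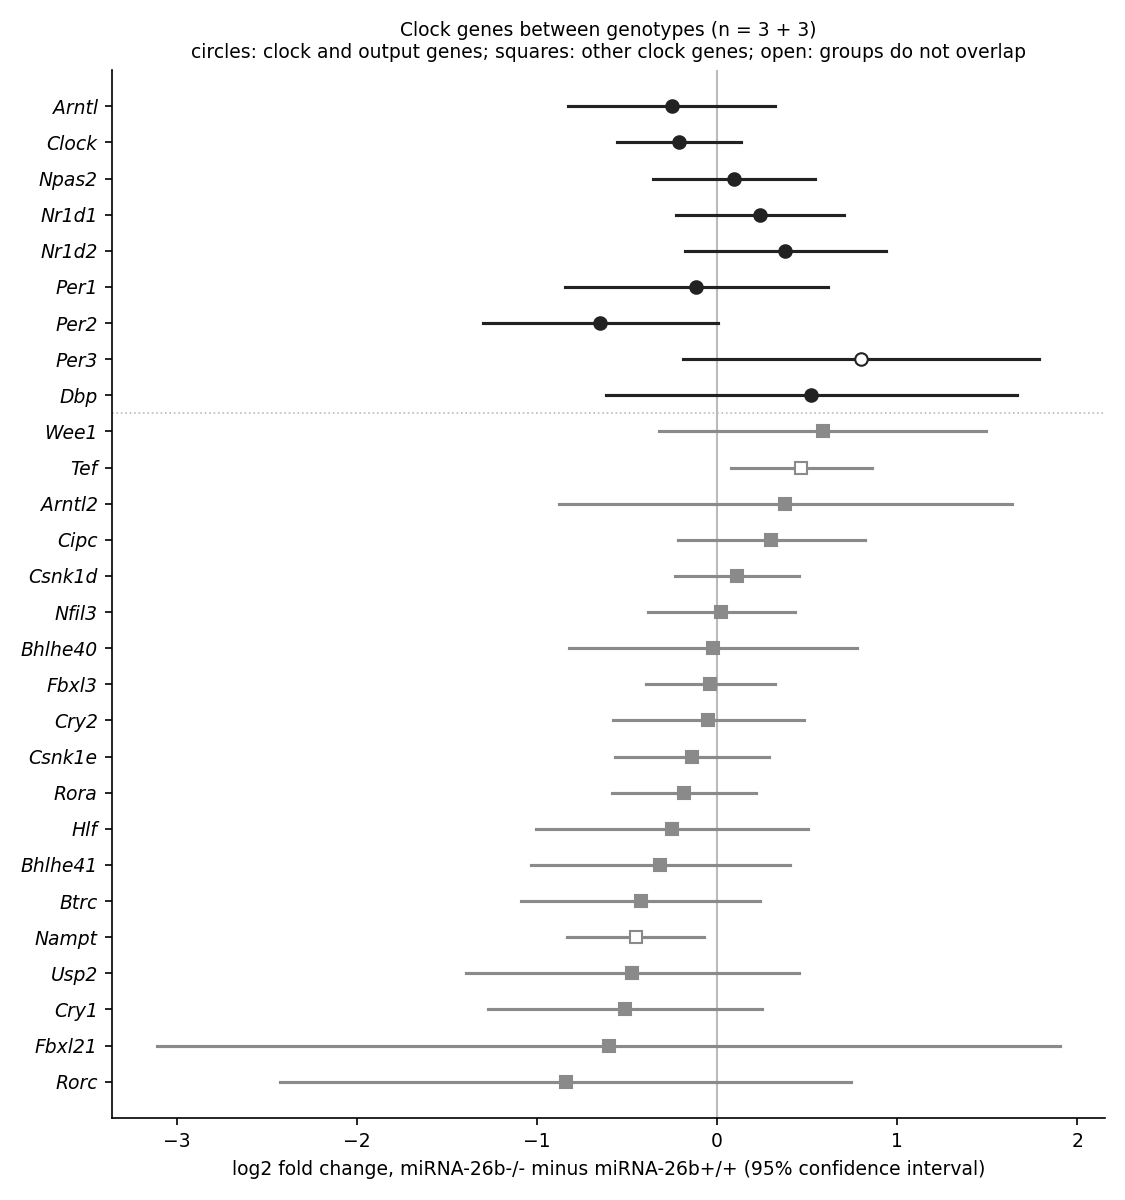
Log2 fold change between genotypes (miRNA-26b-/- minus miRNA-26b+/+) with its 95% confidence interval for the 9 clock genes tested (circles) and 19 other clock genes (squares); open symbols mark genes whose groups do not overlap. The intervals of all 9 circles include 0, and those of the open squares *Tef* (0.47) and *Nampt* (-0.45) do not.

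Reads could not be assigned to 1 strand, and a read over 2 genes had been counted for each, so exons that members share with neighbours on the opposite strand matter to their counts. *Dbp* shares 539 exon bases, 18.0% of its exon length, with *Sphk2*, and *Nr1d1* shares 263 bases, 8.55%, with *Thra*; *Arntl* shares 33 bases with *Gm45355*, and no other member shares any. *Sphk2*, a sphingosine kinase gene, had 1121 to 1579 reads where *Dbp* had 212 to 908. If reads fell evenly over each gene, *Sphk2* reads in the shared stretch would make up 90.6% of the reads counted for *Dbp* in miRNA-26b+/+ 1. They would make up 83.6% and 76.1% in miRNA-26b-/- 2 and 3, and 39.0% and 40.8% in miRNA-26b+/+ 2 and 3, but 19.8% in miRNA-26b-/- 1.

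With those reads taken out, *Dbp* would be at 28.4, 1.19 and 2.16 CPM in miRNA-26b-/-, whereas the miRNA-26b+/+ mice would have 0.652, 7.97 and 8.59 CPM. The library miRNA-26b-/- 1 then stood further apart, and *Dbp* was close to 0 in 3 libraries of both genotypes. The same step, chosen after the values were seen, lowered *Nr1d1* by 13.3% to 25.2% to 169, 107 and 68.6 CPM in miRNA-26b-/- and 103, 93.3 and 95.4 CPM in miRNA-26b+/+, in the same order within miRNA-26b-/-. The log2 fold changes became 0.78 for *Dbp* (unadjusted p of 0.402, adjusted p = 0.934) and 0.23 for *Nr1d1* (unadjusted p of 0.364, adjusted p = 0.931). *Thra*, a thyroid hormone receptor gene, had 9754 to 14503 reads.

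**Figure D3:**
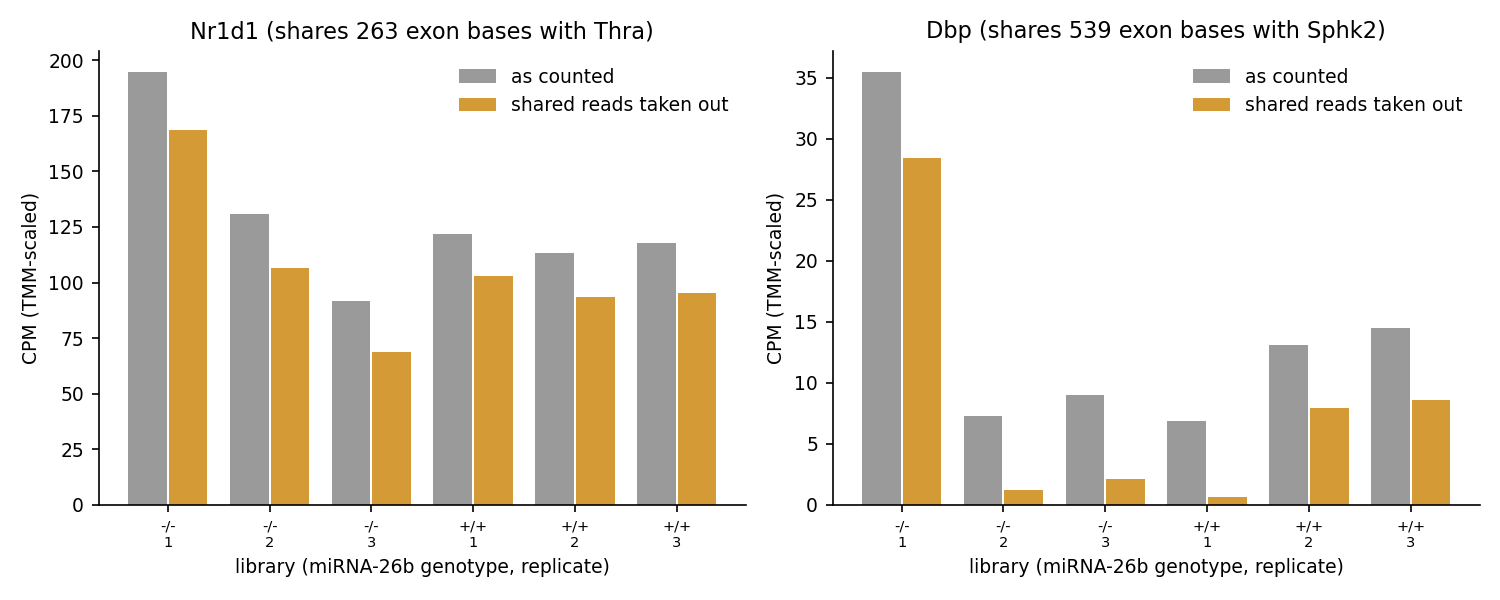
Level of *Nr1d1* (left) and *Dbp* (right) in each library, in CPM, as counted (grey) and with the reads of *Thra* or *Sphk2* in the shared exon bases taken out (orange). Even coverage of each gene was assumed, and the axes start at 0. For *Dbp* the 2 values are 6.91 and 0.652 CPM in miRNA-26b+/+ 1, and 35.4 and 28.4 CPM in miRNA-26b-/- 1.

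Per length of exon, the members spanned more than an order of magnitude. On the TPM scale (counts per base of exon, scaled to the same sum in each library, from the counts and the summed exon length of each gene), the mean level over 6 libraries was 134 for *Nr1d1* (100.2 to 189.6), 43.9 for *Npas2* (35.4 to 59.1), 33.1 for *Clock* (26.7 to 42.9), 27.2 for *Per1* (13.6 to 45.7), 22.3 for *Nr1d2* (13.7 to 29.7), 18.3 for *Arntl* (11.5 to 24.7), 15.2 for *Dbp* (7.65 to 35.5), 13.1 for *Per2* (7.90 to 19.7) and 2.43 for *Per3* (1.26 to 3.49), and 0 for *Ciart*. The range of *Nr1d1* lay above, and that of *Per3* below, those of the other members tested. Every pair of neighbours between them overlapped over the libraries. The values of *Nr1d1* and *Dbp* here and below include the shared reads.

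Apart from *Clock*, *Npas2* and *Per3*, the members tested varied more between mice than most genes of like level. Over the 6 libraries, the SD of log2(CPM + 0.5) was 0.60 for *Per1*, above that of 97.0% of the genes tested within 2-fold of its mean CPM, and 0.85 for *Dbp*, above 94.1%. *Nr1d1* (0.36) was above 89.5% of such genes, *Arntl* (0.42) above 85.0%, *Per2* (0.52) above 84.9% and *Nr1d2* (0.41) above 82.1%. *Clock* (0.19), *Npas2* (0.26) and *Per3* (0.57) were near the middle, above 46.6%, 56.9% and 49.6%. *Clock* is known for little daily change in many tissues.

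The balance of the loop was read in each library from genes of opposite phase. The ratio of *Nr1d1* to *Arntl* in CPM was 6.73, 4.13 and 1.66 in miRNA-26b-/- and 2.39, 3.37 and 2.22 in miRNA-26b+/+. It was highest in miRNA-26b-/- 1, where *Nr1d1*, *Nr1d2* and *Dbp* were at their highest and *Arntl* and *Clock* at their lowest of the 6 libraries. It was lowest in miRNA-26b-/- 3, where *Arntl* and *Npas2* were at their highest and *Nr1d1* at its lowest, so that the miRNA-26b-/- libraries held both ends of this balance. The period genes did not go with it: in miRNA-26b-/- 3, *Per1* was at its highest and *Per2* at its lowest of the 6 libraries.

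A phase contrast over all 10 members, the mean log2(CPM + 0.5) of *Dbp*, *Ciart*, *Nr1d1*, *Nr1d2* and the 3 period genes minus that of *Arntl*, *Clock* and *Npas2*, was -1.68, -2.08 and -2.52 in miRNA-26b-/- and -2.56, -1.96 and -2.48 in miRNA-26b+/+. The mean was -2.09 ± 0.42 (SD, n = 3) and -2.33 ± 0.33 (SD, n = 3), a difference smaller than either SD. Since *Ciart* was at 0 in all libraries and lowered the contrast in each, it was also computed without *Ciart*, and the values were -0.81, -1.27 and -1.70 against -1.77, -1.12 and -1.67. The library miRNA-26b-/- 1 was the highest under each of the 5 other ways of computing it.

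**Figure D4:**
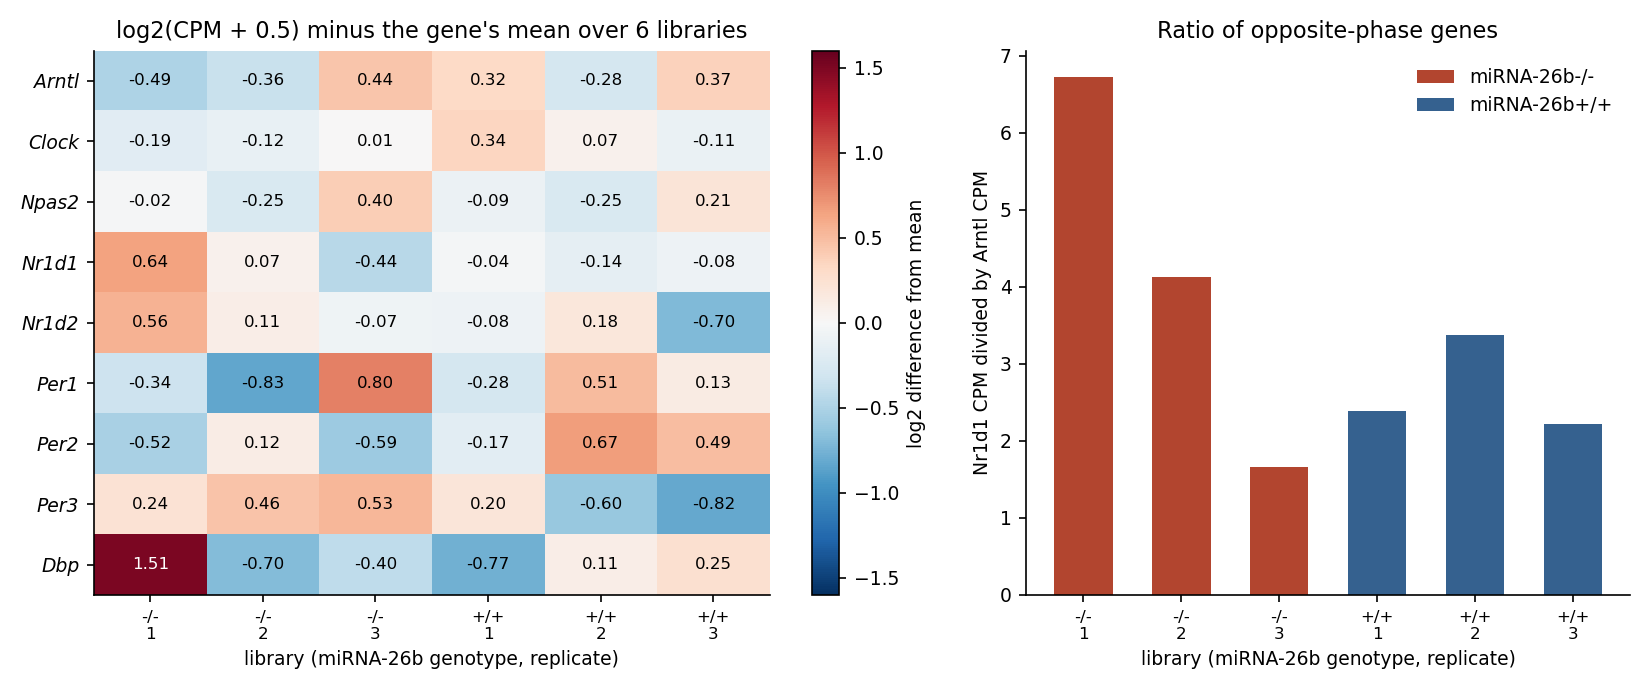
Left, log2(CPM + 0.5) of the 9 clock genes tested minus each gene's mean over the 6 libraries, with the value printed in each cell (red higher, blue lower); right, the ratio of *Nr1d1* to *Arntl* in CPM, on an axis that starts at 0, for miRNA-26b-/- (red) and miRNA-26b+/+ (blue). In miRNA-26b-/- 1 *Dbp*, *Nr1d1* and *Nr1d2* lie 1.51, 0.64 and 0.56 above their means and *Arntl* 0.49 below (-0.49), and the ratio runs from 6.73 in miRNA-26b-/- 1 to 1.66 in miRNA-26b-/- 3.

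Over the 6 libraries, *Arntl* was compared with each of the 8 other members tested, by exact permutation over the 720 pairings. The REV-ERB genes ran opposite to it: Pearson's r on log2(CPM + 0.5) was -0.71 for *Nr1d1* (exact p = 0.0444, adjusted p = 0.178 over 8 relations) and -0.78 for *Nr1d2* (exact p = 0.0306, adjusted p = 0.178). Spearman's rho was -0.83 (exact p = 0.0583, adjusted p = 0.274) and -0.77 (exact p = 0.103, adjusted p = 0.274). After the 2 libraries farthest from the median of *Arntl*, miRNA-26b-/- 1 and 3, were left out, r was -0.25 for *Nr1d1*, which therefore rests on them, and -0.80 for *Nr1d2*. Neither passed the adjustment, and 7.54% and 4.42% of the 11675 genes of mean CPM at least 5 had a lower r with *Arntl* than these 2 had.

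*Npas2*, the member known to run in phase with *Arntl*, had r = 0.73 (exact p = 0.144, adjusted p = 0.385; rho = 0.60), and *Clock* had r = 0.46 (exact p = 0.386, adjusted p = 0.515). *Per1*, which stands with the REV-ERB genes in the phase contrast, had r = 0.51 (exact p = 0.286, adjusted p = 0.515). Its rho was 0.77 (exact p = 0.103, adjusted p = 0.274), as large as that of *Nr1d2* but of the other sign. Its r was 0.19 after the same 2 libraries were left out. *Per2*, *Per3* and *Dbp* lay between -0.47 and -0.095 in r and between -0.26 and -0.029 in rho. The libraries share the tissue mix given above. *Arntl* was low in miRNA-26b-/- 1 and 2, where the endothelial marker sum was lowest, but also in miRNA-26b+/+ 2, where that sum was 1519 CPM. The part of the tissue mix was not tested. With 3 libraries a genotype, no relation was computed within 1 genotype.

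The genes most like *Arntl* over the 6 libraries, by Pearson's r and with the members left out, were *Rbm41* (0.997), *Vipr2* (0.993), *1500015O10Rik* (0.989), *Fryl* (0.987) and *Arhgef12* (0.985). *Vipr2*, a receptor for vasoactive intestinal peptide, was at 8.62, 9.74 and 20.7 CPM in miRNA-26b-/-, whereas the miRNA-26b+/+ mice had 19.1, 9.72 and 17.9 CPM, with the same low and high libraries as *Arntl*. The genes most like *Dbp* were *Klhl30* (0.991), *Rps7* (0.982), *Gm29331* (0.970), *Gtf3a* (0.969) and *Rps29* (0.968), each highest in miRNA-26b-/- 1; among them *Rps7* and *Rps29* encode ribosomal proteins. *Rps7* was at 212 CPM in miRNA-26b-/- 1 and at 114 to 158 CPM in the other 5 libraries. These genes were picked from 11675 for their likeness over 6 points, so their r is a description only.

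The pathway's other genes were read in the same way. Of 20 other clock genes (partners, kinases, ligases, ROR receptors and outputs), 19 were tested, 6 lay above 0 and 13 below with a median log2 fold change of -0.14, and 2 had an unadjusted p under 0.05, 1 in each direction (10.5% of the 19, beside 6.46% of all genes tested). The same 2 were those whose groups did not overlap, beside 11.5% of all genes tested, so that with 19 genes both counts were near the background. Neither passed the adjustment. *Rorb* was not tested, with 1 read in the 6 libraries.

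*Tef*, a D-box activator related to *Dbp*, was at 106, 83.9 and 81.9 CPM in miRNA-26b-/-, whereas the miRNA-26b+/+ mice had 56.8, 75.0 and 64.6 CPM. All miRNA-26b-/- libraries were above all miRNA-26b+/+ libraries, with a log2 fold change of 0.47 ± 0.18 (SE; unadjusted p of 0.0228, adjusted p = 0.736). *Nampt*, the rate-limiting enzyme of NAD salvage and an output of the clock, was at 78.5, 75.6 and 56.2 CPM in miRNA-26b-/-, whereas the miRNA-26b+/+ mice had 91.7, 100.3 and 96.0 CPM. Its groups did not overlap either, with miRNA-26b-/- the lower, and the log2 fold change was -0.45 ± 0.18 (SE; unadjusted p of 0.0223, adjusted p = 0.736).

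Both lost an unadjusted p under 0.05 when single libraries were left out: *Tef* without miRNA-26b-/- 1 (0.34, unadjusted p of 0.105, adjusted p = 0.860), miRNA-26b+/+ 1 or miRNA-26b+/+ 3, and *Nampt* without miRNA-26b-/- 3 (-0.32, unadjusted p of 0.0817, adjusted p = 0.535) or miRNA-26b+/+ 2. *Nampt* has 1 miRNA-26b 8mer in its 2816-base 3′ UTR and was the lower in miRNA-26b-/-, whereas *Per3*, with an 8mer too, was the higher. *Cipc*, an inhibitor of CLOCK, has 2 8mers and a log2 fold change of 0.30 ± 0.24 (SE; unadjusted p of 0.235, adjusted p = 0.888), and *Tef* has no match.

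The cryptochromes, which act with the period proteins, did not pass the test either. *Cry1* was at 8.51, 17.7 and 11.5 CPM in miRNA-26b-/- and its log2 fold change was -0.51 ± 0.36 (SE), and *Cry2* had -0.049 ± 0.25 (SE). The gene of the list with the highest level, *Csnk1d*, a kinase of the period proteins, had a mean of 141 ± 16.0 CPM in miRNA-26b-/-, as against 131 ± 16.7 CPM without the deletion (SD, n = 3 each), and its log2 fold change was 0.11 ± 0.16 (SE).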

How the data were processed

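Aortic RNA of 6 mice, 3 miRNA-26b-/- and 3 miRNA-26b+/+, was sequenced from TruSeq libraries, which do not mark the strand. The authors aligned the reads to GRCm38/mm10 with STAR and deposited raw read counts per gene name, made per the file header with featureCounts 1.6.4 on GENCODE M21 (the study's methods name another release), with a read over several genes counted for each. The deposited table of log2 CPM and of the authors' own fold changes and p-values was not used.

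Genes were tested where their counts summed to 2 or more and CPM exceeded 1 in 2 or more libraries, with edgeR 4.0.16 (quasi-likelihood, TMM, prior count 0.125; R 4.3.3), Benjamini-Hochberg adjusted over all genes; DESeq2 1.42.0 and limma 3.58.1 (voom) were alternatives. The fits between genotypes were tried on simulated counts with known fold changes, and the other steps were not tested in this way. Groups came from the labels, and the p-values measure the spread between mice. SE is the log2 fold change over the root of F. Loci and 3′ UTRs came from GENCODE M21, whose exon lengths equal the table's for all members; no promoter of *Per2* was used here. The neighbour's reads in shared exons were solved from both genes' counts under even coverage.

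Members and lists were chosen with earlier results of these data known. Named were all members, the genes of the other lists (other clock genes, glucocorticoid-induced, immediate early and cell type marker genes) with an unadjusted p under 0.05 and the one of highest mean CPM, and the 5 genes nearest to *Arntl* and to *Dbp*. The result of 1 marker list is not reported here.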

Additional observations from a re-analysis of the deposited data

How the results depend on the processing

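No paired analysis was possible because the labels number the mice without pairing them across genotypes. Of 171 member log2 fold changes under 19 alternatives each, 155 kept their sign and their side of an unadjusted p of 0.05, and 9 kept their sign and passed it. None could lose it, since no member was under 0.05 in the main fit. The other 7 changed sign: *Npas2* without miRNA-26b-/- 3 (-0.11), *Nr1d1* and *Dbp* without miRNA-26b-/- 1 (-0.076 and -0.50), and *Per1* without miRNA-26b-/- 1 (0.027), miRNA-26b-/- 2 (0.21), miRNA-26b+/+ 2 (0.10) or both replicates 2, the libraries with the most sympathetic neuron and cardiac muscle transcripts (0.42). With all libraries the sign of every member tested was the same under each alternative. The members under an unadjusted p of 0.05 numbered 1, *Per2*, with the likelihood ratio test, robust shrinkage or the earlier quasi-likelihood method. Of all genes, 4.96%, 6.33% and 5.01% were called by these. With 1 library left out the members numbered 0 to 3, where 4.36% to 10.8% of all genes were called. Without miRNA-26b-/- 3 they were *Arntl*, *Nr1d1* and *Per1* (10.8% of all genes). Without miRNA-26b+/+ 1 they were *Per2* and *Per3* (5.34% of all genes). Under any alternative, 0 members passed the adjustment. The other clock genes under 0.05 numbered 1 to 3 with 1 library left out, beside the same range of shares over all genes. They numbered 1 without both replicates 2, where 4% of all genes were called. Genes called at unadjusted p ranged from 686 to 1692 with 1 library left out and were 607 without both replicates 2; at adjusted p they were 57 with DESeq2, 19 with the likelihood ratio test, 3 with voom or robust shrinkage, 0 with the earlier quasi-likelihood method or without both replicates 2, and 0 to 82 with 1 library left out, against 1. The cause was not tested.

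The phase contrast without *Clock*, *Npas2* and *Per1* was -0.77, -1.30 and -2.27 in miRNA-26b-/- and -2.12, -1.35 and -2.18 in miRNA-26b+/+. The lowest library was then miRNA-26b-/- 3, in place of miRNA-26b+/+ 1. With a pseudocount of 2 it was -2.20, -1.61 and -2.10 in miRNA-26b+/+. Without *Ciart* it was -0.81, -1.27 and -1.70 in miRNA-26b-/- and -1.77, -1.12 and -1.67 in miRNA-26b+/+, and with shared exon reads taken out it was -2.98 in miRNA-26b+/+ 1; these last 2 were added after the values were seen.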

Other observations

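Gene groups that can move with stress or the hour of collection were read beside the clock. Single genes in each group had an unadjusted p under 0.05, a rule that called 6.46% of all genes tested, so that nothing is read from these counts. Of 10 glucocorticoid-induced genes, all tested, 6 lay above 0 and 4 below and 1 was called: *Zbtb16*, a transcription factor gene, was at 12.6, 32.7 and 19.9 CPM in miRNA-26b-/- and in miRNA-26b+/+ at 37.5, 190.0 and 170.4 CPM, a log2 fold change of -2.57 (unadjusted p of 7.3e-05, adjusted p = 0.167, edgeR). The gene of that list with the highest level, *Dusp1*, was at 319 ± 61.4 CPM in miRNA-26b-/- and at 305 ± 103 CPM in miRNA-26b+/+ (SD, n = 3 each). Of 8 immediate early genes, 4 lay above 0 and 4 below and 1 had an unadjusted p under 0.05, *Junb*, at 26.4, 27.6 and 58.2 CPM in miRNA-26b-/- and in miRNA-26b+/+ at 58.0, 85.2 and 52.4 CPM (log2 fold change -0.80, unadjusted p of 0.0145, adjusted p = 0.736, edgeR). *Egr1* led that list with 228 ± 36.2 CPM and 267 ± 145 CPM (SD, n = 3 each). *Per1*, which also answers glucocorticoids, was highest in miRNA-26b-/- 3, and *Zbtb16* in miRNA-26b+/+ 2.

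Among the lists of cell type markers reported here, those of sympathetic neurons and skeletal muscle held genes with an unadjusted p under 0.05. No gene of these lists passed the adjustment over all genes. The genes under 0.05 all had the higher mean in miRNA-26b-/-. They were 3 of 5 sympathetic neuron markers (*Th*, *Tubb3* and *Snap25*) and 4 of 5 skeletal muscle markers (*Acta1*, *Tnnt3*, *Mylpf* and *Myh4*), beside 6.46% of all genes tested; genes of 1 list share their cells of origin and are not independent. The summed skeletal muscle markers were at 8.39 to 83.2 CPM in miRNA-26b-/- and, in the wild-type mice, at 2.18 to 11.2 CPM. The sympathetic sum was 238 CPM in miRNA-26b-/- 2 but 8.35 and 8.96 CPM in miRNA-26b-/- 1 and 3. It was 9.16, 50.3 and 21.9 CPM in miRNA-26b+/+ 1 to 3, so that its higher mean in miRNA-26b-/- rests on 1 library. The endothelial, smooth muscle, adventitial fibroblast, brown fat, adipocyte, macrophage, cardiac, erythroid and lymphocyte lists held 0 such genes by edgeR, and the highest gene of each was *Pecam1*, *Acta2*, *Dcn*, *Ucp1*, *Cfd*, *Csf1r*, *Myh6*, *Hbb-bs* and *Ms4a1*; in the sympathetic neuron and skeletal muscle lists it was *Stmn2* and *Ckm*. The summed erythroid markers were highest in miRNA-26b-/- 1, at 692 CPM against 60.6 to 458 CPM in the other libraries, the library that also had the most *Dbp*; their part in it was not tested.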
